A study of Mus musculus with 18 samples.

Results

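Interferon-response dermal fibroblasts are fibroblasts of the mouse skin that carry the RNA of interferon-stimulated genes. They were looked for in single-cell RNA profiles of dorsal dermis from 18 male wild-type C57BL/6J mice, 1 library per mouse, with 3 mice at each of 6 zeitgeber times (ZT, hours after lights on): ZT2, ZT6, ZT10, ZT14, ZT18 and ZT22. No group received a treatment or carried an altered allele, so the groups differ in the time of collection and, within each time, in the collection day. The labels give collection hours from 2 to 70, and replicates 1, 2 and 3 were read from them as days 1, 2 and 3. Live dermal cells were sorted and profiled with a 3' counting chemistry, which records unique molecular identifiers (UMIs, 1 per captured RNA molecule). The libraries held 4850221 (ZT18 replicate 1) to 40827442 UMIs (ZT2 replicate 3).

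The members were selected on their own counts. A barcode was taken as a cell when it held 850 to 7800 genes with under 13% mitochondrial UMIs. A cell was taken as a fibroblast when Col1a1, Col1a2 and Col3a1 together had at least 20 UMIs, the receptor gene Pdgfra at least 1 and the leukocyte gene Ptprc 0. A fibroblast was taken as an interferon-response cell when Ifit1, Ifit3 and Iigp1 together had at least 5 UMIs, so the levels of these 3 genes describe the choice and are not a finding. Of 23990 barcodes, 16877 passed the cell filter, 12119 were fibroblasts and 2171 were interferon-response cells, which is 17.9% of the fibroblasts (95% Clopper-Pearson interval 17.2 to 18.6%, counting error only). The other 9948 fibroblasts of the same libraries serve as the comparison. Each library gave between 24 (ZT6 replicate 2) and 309 (ZT2 replicate 3) interferon-response cells, with 626163 to 8211700 UMIs among them. Among the kept cells of all types, 36 barcodes occurred in more than 1 library, and 0 of them were interferon-response cells in more than 1 library.

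Cells release type I interferon (such as interferon beta, the product of Ifnb1) when they sense foreign or misplaced nucleic acid, and T and NK cells release interferon gamma. Both are read by surface receptors that work through JAK kinases. Type I interferon leads to a complex with STAT2 and IRF9, which binds the interferon-stimulated response element (ISRE), while interferon gamma acts through a shorter palindrome, the gamma-activated site (GAS). The target genes encode proteins that block viral RNA and its translation, GTPases that attack the vacuoles of intracellular microbes, parts of antigen presentation, and inhibitors of the pathway itself. Ifit1 and Ifit3 encode proteins that bind foreign RNA, and Iigp1 encodes an immunity-related GTPase.

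The UMIs of the 3 chosen genes ran without a gap across the threshold. Of all fibroblasts, 5009 had 0 such UMIs and 2449 had 1. Just outside the threshold, 497 cells had 4 UMIs, and just inside it, 349 had 5. The members had a median of 10 (quartiles 6 and 17, highest 387), and 144 of them had 50 or more. These are the counts that the choice used, so they describe the cut. They cannot show whether the members form a separate state. In muscle cells of the same libraries, where the 3 genes serve as a check on free RNA, 0 of 723 cells reached the threshold, which allows a share of up to 0.415% (3 counts of the total), at a median of 6538 UMIs per cell against 22138 in fibroblasts. Of 3066 immune cells (Ptprc above 0, no Pdgfra), 484 reached it (15.8%), at a median of 11474 UMIs. Of the fibroblast barcodes that failed the cell filter, 1 of 216 reached it.

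One library stood apart. In ZT14 replicate 1, 132 of 262 fibroblasts (50.4%, 95% interval 44.2 to 56.6%) were interferon-response cells, while the other 17 libraries lay between 11.2% (ZT10 replicate 3) and 26.1% (ZT6 replicate 1). The same library had the highest share of immune cells, 41.0% of the kept cells against 9.08 to 27.4% elsewhere, and the deepest fibroblasts, with a median of 32157 UMIs against 18670 to 27805. Without it, 2039 of 11857 fibroblasts were interferon-response cells (17.2%). Deeper cells reach a UMI threshold more readily, and after the 11072 fibroblasts with at least 10000 UMIs were thinned to that number, and the shallower ones left out, the share was 21.4% in this library (257 of its 262 fibroblasts) and 5.44 to 11.9% in the others.

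The first comparison asked whether the share of interferon-response cells followed the time of day. The share was 17.3, 17.99 and 20.7% in the 3 mice of ZT2, 26.1, 13.4 and 12.6% at ZT6, and 18.8, 13.5 and 11.2% at ZT10. It was 50.4, 13.3 and 13.9% at ZT14, 25.5, 17.1 and 17.8% at ZT18, and 19.9, 19.1 and 12.2% at ZT22, with the replicates in the order of collection day. The ranges of the 6 times overlapped, and the spread within ZT14 and ZT6 was wider than the distance between most times. The time means ± SD (n = 3 mice each) were 18.7% ± 1.81, 17.4% ± 7.58, 14.5% ± 3.86, 25.9% ± 21.2, 20.1% ± 4.64 and 17.04% ± 4.24. A cosine with a period of 24 h took up a share of 0.0551 of the variance over the 18 libraries (permutation test over libraries, 100000 draws, p = 0.791), and the F ratio between the 6 times was 0.480 (permutation p = 0.912). After thinning, the cosine took up 0.0585 (permutation p = 0.713), and without ZT14 replicate 1 it took up 0.121 (permutation p = 0.405). A rhythm of the share was not detectable with this spread between mice. The replicate of day 1 had the highest share at 5 of the 6 times and that of day 3 at the remaining time. The median share over the 6 libraries of a day was 22.7% on day 1, 15.3% on day 2 and 13.3% on day 3, and a difference between days was not tested.

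**Figure D1:**
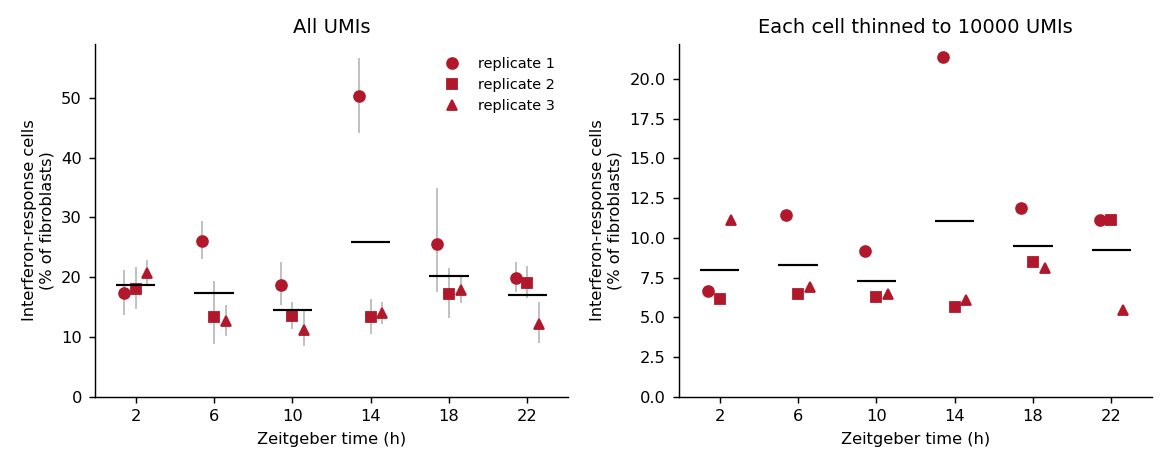
Share of fibroblasts that were interferon-response cells (percent) against zeitgeber time (hours), 1 point per library and 3 libraries per time, with exact 95% intervals for counting error and the mean of each time. ZT14 replicate 1 sits at 50.4%, and the other 17 libraries lie between 11.2 and 26.1%.

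The share followed other measures of the same libraries, of which 3 were examined, with p-values adjusted over the 3. The summed level of 36 antiviral effector genes in the immune cells of a library ran from 42.2 to 142 UMIs per 10000 and rose with the share in its fibroblasts (n = 18 libraries, Pearson r = 0.780, permutation p = 0.00031, adjusted p = 0.000615, Spearman rho = 0.808, permutation p = 9e-05, adjusted p = 0.00027). Without the 2 libraries farthest from the median level (ZT14 replicate 1 and ZT2 replicate 3), r was 0.651 (permutation p = 0.00763, adjusted p = 0.0114). Within days 1, 2 and 3 (6 libraries each), r was 0.773, 0.838 and 0.847 (exact permutation p = 0.0722, 0.0569 and 0.0181, adjusted p = 0.108, 0.171 and 0.0542). After adjustment it passed within none of the days. The rank correlations within days were 0.371, 0.657 and 0.771 (exact permutation p = 0.497, 0.175 and 0.103, adjusted p = 0.746, 0.525 and 0.308), the lowest on day 1, which holds ZT14 replicate 1. After centring of both measures within days, r was 0.715 (permutation p = 0.00126, adjusted p = 0.00274). The rank correlation fell to 0.562 (permutation p = 0.0166, adjusted p = 0.0497), just under the threshold. Fibroblasts and immune cells of a library share its preparation and sequencing. The median number of UMIs per fibroblast followed the share as well (r = 0.790, permutation p = 0.00041, adjusted p = 0.000615, rho = 0.631, permutation p = 0.00649, adjusted p = 0.00973). Without the 2 libraries farthest from its median (ZT14 replicate 1 and ZT2 replicate 1), r was 0.696 (permutation p = 0.00255, adjusted p = 0.00765), and within the 3 days it was 0.792, 0.401 and 0.447 (exact permutation p = 0.0472, 0.383 and 0.375, adjusted p = 0.108, 0.575 and 0.550), so that it passed within none of them. Its rank correlations within days were 0.371, 0.143 and 0.143 (exact permutation p = 0.497, 0.803 and 0.803). With both measures centred within days, r was 0.702 (permutation p = 0.00183, adjusted p = 0.00274) and rho was 0.443 (permutation p = 0.068, adjusted p = 0.102), so the rank correlation no longer passed. With the share after thinning in place of the share itself, r was 0.815 for the level in immune cells (permutation p = 0.00016) and 0.652 for the depth (permutation p = 0.00694). The rank correlations after thinning were 0.666 (adjusted permutation p = 0.0102) and 0.470 (adjusted permutation p = 0.0787), and the second did not pass. The immune cells as a percent of the kept cells gave r = 0.715 (permutation p = 0.0175, adjusted p = 0.0175) and rho = 0.35 (permutation p = 0.155). That relation rested on ZT14 replicate 1. Without it r was 0.119 (permutation p = 0.647), and without the 2 libraries farthest from the median (ZT14 replicate 1 and ZT2 replicate 2) it was 0.108 (permutation p = 0.689).

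The label was checked against the 6 genes given as its markers, of which Isg15, Usp18 and Cmpk2 were not part of the choice. Levels are UMIs per 10000 UMIs of a library's cells, and each set of 3 values is the lowest, median and highest of 18 libraries. Isg15, which encodes a ubiquitin-like protein that is joined to other proteins during infection, was at 1.37, 2.14 and 3.92 in interferon-response cells and at 0.0561, 0.217 and 0.533 in the other fibroblasts. Every library of the first kind was above every library of the second, and the highest value among the other fibroblasts was that of ZT14 replicate 1. Usp18, whose product removes ISG15 and dampens the type I receptor, was at 0.708, 0.987 and 1.25 against 0.238, 0.316 and 0.376. Cmpk2, a nucleotide kinase gene, was at 0.271, 0.525 and 0.678 against 0.0942, 0.121 and 0.181. Neither gene's ranges overlapped. The genes of the choice were at 1.86, 3.06 and 4.40 against 0.0918, 0.125 and 0.182 for Ifit1, at 0.582, 1.17 and 1.99 against 0.0474, 0.105 and 0.140 for Ifit3, and at 1.47, 2.38 and 3.50 against 0.141, 0.176 and 0.258 for Iigp1. The fitted log2 difference ± SE was 3.29 ± 0.11 for Isg15, 1.60 ± 0.05 for Usp18 and 2.02 ± 0.08 for Cmpk2 (edgeR on sums per library, library as a block). Interferon-stimulated genes rise and fall together, so cells chosen for 3 of them will be high in the rest. For this reason all differences of interferon genes are given as a description, with no p-value.

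**Figure D2:**
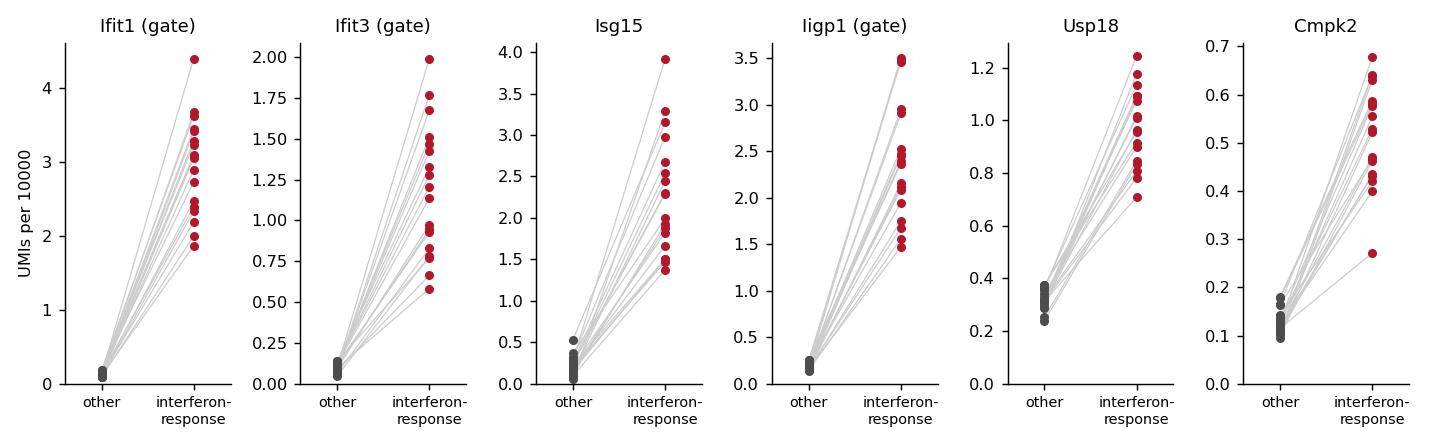
Level of the 6 marker genes in UMIs per 10000 in interferon-response cells and in the other fibroblasts of the same library. Each point is 1 library. Ifit1, Ifit3 and Iigp1 were part of the choice, so their separation describes the rule. For Isg15, Usp18 and Cmpk2, which were not, the 2 sets of 18 libraries do not overlap. For Isg15 the highest of the other fibroblasts is 0.533 in ZT14 replicate 1.

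Stretches upstream of the genes are shown because their letters match the ISRE. Positions are those of GRCm38.p6 from RefSeq, the sequences read 5' to 3' on the strand of the gene, and capitals mark matches to an ISRE-like run of letters, a pair of GAAA half-sites with any 2 bases between them, searched on both strands, so that a match on the other strand reads as a pair of TTTC half-sites. The Ifit1 stretch lies on chr19:34640785-34640814 (plus strand), 104 to 75 bases before the annotated start, and holds 2 matches. The Ifit3 stretches lie on chr19:34583363-34583392 and chr19:34583397-34583426 (plus strand), the Isg15 stretch on chr4:156200871-156200900 (minus strand, 82 to 53 bases before the start, 3 overlapping matches), the Rsad2 stretch on chr12:26456553-26456582 (minus strand) and the Stat2 stretch on chr10:128270266-128270295 (plus strand).
Ifit1: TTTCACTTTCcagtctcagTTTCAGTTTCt
Ifit3, first: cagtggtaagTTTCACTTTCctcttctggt
Ifit3, second: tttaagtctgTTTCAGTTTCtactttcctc
Isg15: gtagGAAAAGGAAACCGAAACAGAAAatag
Rsad2: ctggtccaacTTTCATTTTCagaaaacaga
Stat2: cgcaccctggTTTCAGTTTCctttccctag

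Among all RefSeq promoter windows of the same length (250 bases before to 50 after a start), 1131 of 32851 (3.44%) held such a match, and counted by gene it was 1079 of 27025 (3.99%). Among the interferon genes with a window, including the chosen ones, it was 49 of 111 (44.1%). The match was found for 10 of 11 inducible GTPase genes, 13 of 30 antiviral effector genes, 4 of 6 sensor genes, 5 of 14 class I presentation genes and 11 of 19 interferon ligand genes. It was found for 2 of 7 chemokine and ligand genes of the response, 1 of 4 inhibitor genes, 1 of 10 signalling genes, 0 of 5 receptor genes and 0 of 3 class II genes. It was found for 0 of 16 clock genes and 1 of 16 matrix genes. Cmpk2 had a window with no match in these letters. The GAS-like run TTCNNNGAA, which is its own reverse complement, was in 2726 of all windows (8.30%), counted by gene in 2582 of 27025 (9.55%), and in 31 of the 111 interferon genes (27.9%). A match is a description of letters and not a mapped site.

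The markers rose in steps with the UMIs of the 3 chosen genes on both sides of the threshold. Isg15 was at 0.146 UMIs per 10000 in the 5009 fibroblasts without any such UMI, at 0.247 in the 3728 cells with 1 or 2, and at 0.480 in the 1211 cells with 3 or 4. It was at 0.991 in the 1083 cells with 5 to 9, at 1.95 in the 620 with 10 to 19, at 4.25 in the 324 with 20 to 49 and at 11.1 in the 144 with 50 or more. The step across the threshold was of about the same size as its neighbours. From the lowest to the highest class Rsad2, the gene of the antiviral enzyme viperin, went from 0.0194 to 3.997, Cmpk2 from 0.0997 to 2.28 and Usp18 from 0.275 to 2.70. The receptor gene Ifnar1 went from 0.294 to 0.283 and Ifnar2 from 0.854 to 0.857, and B2m, the light chain of class I molecules, from 12.9 to 18.6. The median depth rose over the same classes from 20000 to 27452 UMIs per cell, and its part in the rise over these classes was not tested. Cells of all libraries are pooled in these classes, and without ZT14 replicate 1 Isg15 went from 0.145 to 11.4.

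**Figure D3:**
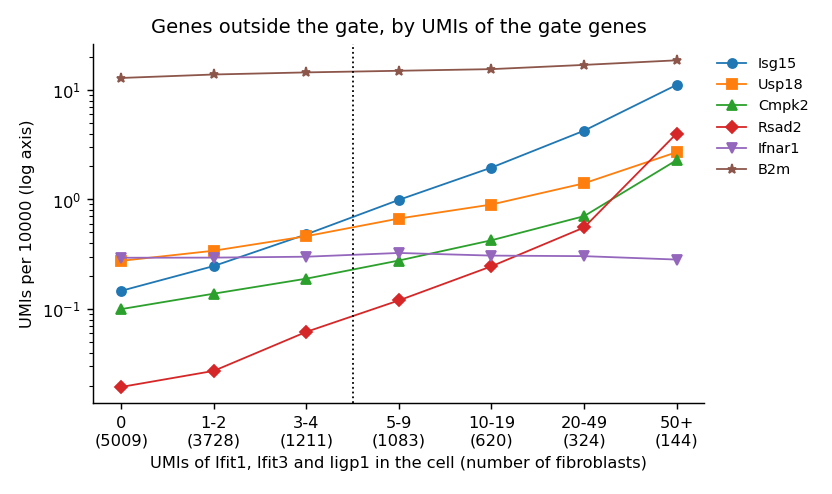
Levels of Isg15, Usp18, Cmpk2, Rsad2, B2m and the receptor gene Ifnar1 in UMIs per 10000 (log axis), pooled over fibroblasts grouped by their summed Ifit1, Ifit3 and Iigp1 UMIs, with the threshold of 5 UMIs marked. Isg15 rises from 0.146 to 11.1 across the 7 classes with no break at the threshold, while Ifnar1 stays between 0.283 and 0.325.

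Taken across all 12373 genes tested in interferon-response cells against the other fibroblasts of the same library, 433 were higher (3.50%) and 382 lower (3.09%) at an adjusted p under 0.05 (edgeR quasi-likelihood test, library as a block, chosen genes left out). With the collection day as the block in place of the library, 289 passed. The cells were chosen on this contrast for the interferon lists, so their counts are read as a description. Of 110 interferon genes tested, 84 were higher and 0 lower, and 78 of the 84 passed again after thinning to 10000 UMIs. Isg20 and H2-D1 did not, and Oas1g, Tnfsf10, Gbp10 and Ifi44 had too few UMIs left to be tested. Their median by list is set beside a median of 0.00 over all genes tested.

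Ligand genes had few UMIs. Of 20 interferon genes, Ifnb1 was the only one with enough UMIs to test, Ifng had 4 UMIs, and the other 18 were at 0 in the members. Ifnb1 had a UMI in 72 of 2171 interferon-response cells (3.32%, interval 2.60 to 4.16%, counting error only), in 134 of 9948 other fibroblasts (1.35%), in 37 of 3066 immune cells (1.21%) and in 0 of 723 muscle cells. By library the share of interferon-response cells ran from 0% (ZT2 replicate 1 and ZT18 replicate 2) to 8.33% (ZT2 replicate 2). Over the cells with at least 10000 UMIs, thinned to that number, the shares were 2.26% of 2122 interferon-response cells, 0.939% of 8950 other fibroblasts and 1.26% of 1743 immune cells. This left out many of the immune cells, whose median depth was 11474 UMIs. The counts were concentrated, since 25 interferon-response cells had 5 or more Ifnb1 UMIs and the highest had 50. Its level was higher in the interferon-response cells of 13 of 18 libraries (lowest 0, median 0.0514, highest 0.271 against 0, 0.0116 and 0.0749 UMIs per 10000), and the ranges overlapped. Ifng, the interferon of T and NK cells, had a UMI in 4 of the 2171, in 9 of the 9948 and in 66 of the 3066 immune cells (2.15%).

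Receptor genes did not pass the test. Of 5 tested, 0 were higher and 0 lower, with a median log2 difference of 0.02. Ifnar1 was at 0.241, 0.308 and 0.376 UMIs per 10000 in interferon-response cells and at 0.253, 0.284 and 0.333 in the others, and Ifnar2 at 0.647, 0.895 and 1.30 against 0.777, 0.872 and 0.932. The ranges of both chains of the type I receptor overlapped almost wholly. The log2 difference ± SE was 0.07 ± 0.04 for Ifnar1, 0.03 ± 0.04 for Ifnar2 and -0.05 ± 0.03 for Ifngr1, a chain of the gamma receptor.

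Among the 9 signalling genes tested, 5 were higher and 0 lower, with a median log2 difference of 0.40. Stat2 was at 0.853, 1.09 and 1.66 UMIs per 10000 against 0.214, 0.296 and 0.407 (log2 difference 1.86 ± 0.05 SE). The ranges of this transcription factor gene did not overlap. Irf7, which amplifies type I interferon, differed by 1.23 ± 0.07 on the log2 scale, Irf9 by 0.96 ± 0.05 and Irf1, a target of interferon gamma, by 0.40 ± 0.06. The kinase gene Jak1 differed by 0.07 ± 0.03 and Irf3, which is activated by phosphorylation, by -0.03 ± 0.05, and neither passed. Of the 10 sensor genes tested, 7 were higher, with a median of 1.01, among them Ifih1 (1.41 ± 0.04) and Ddx58 (1.37 ± 0.04), which encode receptors of double-stranded RNA, and Zbp1 (1.36 ± 0.05).

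Among the interferon lists by function, effectors and GTPases had the widest median differences. All 35 effector genes tested were higher (median log2 difference 1.68), and their summed level was 80.8 ± 10.3 UMIs per 10000 (SD, n = 18 libraries) against 47.8 ± 6.08. Rsad2 was at 0.166, 0.450 and 0.765 against 0.00889, 0.0263 and 0.0455 (log2 difference 4.06 ± 0.10). Oasl2, a relative of the RNA-sensing oligoadenylate synthetases, was at 1.05, 1.35 and 1.69 against 0.189, 0.250 and 0.541 (2.34 ± 0.05). In neither gene did the sets of libraries overlap, and the other fibroblasts of ZT14 replicate 1 were again the highest of their kind. Bst2, the gene of tetherin, differed by 0.89 ± 0.06. All 15 inducible GTPase genes tested were higher (median 2.04), from 1.11 ± 0.06 for Gbp2 to 3.11 ± 0.22 for Gbp4, with Irgm1 at 2.02 ± 0.06 and Igtp at 2.09 ± 0.08 between them. These genes have close relatives between which reads can be split, so single values within the family are less certain than its sum, which was 6.12 ± 0.893 against 1.72 ± 0.252.

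Inhibitors were split, with 2 of 5 tested higher. They were Usp18, above, and Socs1 (0.88 ± 0.11), which blocks JAK kinases, while Socs3 differed by 0.06 ± 0.09. Of 16 class I presentation genes 13 were higher, with a median of 0.38. Nlrc5, the activator of class I genes, was at 0.00587, 0.0335 and 0.0705 against 0.00296, 0.00662 and 0.0161 (2.22 ± 0.20), and the peptide transporter gene Tap1 differed by 1.2 ± 0.08. The abundant chains moved less, with B2m at 0.17 ± 0.02 and H2-K1 at 0.10 ± 0.03, the last of which did not pass. None of the 5 class II genes tested passed (median 0.12). Of 9 interferon-induced chemokines and ligands, 6 were higher (median 0.75), among them Cxcl9 (1.73 ± 0.36), Cxcl10 (0.49 ± 0.13), the checkpoint ligand gene Cd274 (1.01 ± 0.14) and Il15 (0.84 ± 0.08). Cxcl10 overlapped widely between the states, at 0.715, 3.44 and 6.17 UMIs per 10000 against 0.777, 2.58 and 4.95.

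Outside the interferon lists, 349 of 12263 genes were higher and 382 lower. Most of these differences were small, with a median log2 difference of 0.26 among the higher and -0.25 among the lower genes. The interferon-response cells were deeper than the others in 18 of 18 libraries (median UMIs per cell 26299 ± 3878 against 22854 ± 2899, SD over libraries), which the choice by UMIs favours, and their mitochondrial share was lower in 17 (2.04% ± 0.185 against 2.23% ± 0.204). The 11072 fibroblasts with at least 10000 UMIs were then thinned to that number before the choice, and the shallower ones left out. After this, 136 of the 349 and 37 of the 382 passed again. The direction was the same after thinning for 304 of the 349 and 321 of the 382. With the collection day as a block in place of the library, 135 and 79 passed. Leaving out each library in turn, 241 and 231 passed every time. The part of depth in the rest was not tested further.

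Several of the higher genes outside the lists are known for antiviral roles. The 10 with the smallest adjusted p were Slfn2, Parp12, Trim25, Aftph, Apol9a, Adar, Phf11b, Mndal, Trim34a and Tor1aip1. All 10 were higher in 18 of 18 libraries, and all passed after thinning and with the day block. Slfn2, a gene of the schlafen family, was at 0.529, 0.636 and 0.883 UMIs per 10000 against 0.0983, 0.146 and 0.311 (log2 difference 2.03 ± 0.06). The highest of the other fibroblasts was ZT14 replicate 1, and it stayed below the lowest interferon-response value. Apol9a differed by 2.36 ± 0.09, Trim25, a ligase that acts on the RNA sensor of Ddx58, by 1.50 ± 0.05 and Adar, the RNA-editing enzyme, by 1.17 ± 0.05. Parp12 differed by 1.13 ± 0.04, Aftph by 1.12 ± 0.04, Phf11b by 1.49 ± 0.06, Mndal by 1.24 ± 0.05, Trim34a by 1.67 ± 0.08 and Tor1aip1 by 0.60 ± 0.03. The choice of cells favours interferon-induced genes outside the fixed lists as it favours those within them, so these values too are a description, with no p-value.

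Lower genes were led by Wfdc12, Gm42418, Tnmd, mt-Co3, Ndufa4l2, Lars2, AY036118, Camk2a, mt-Nd1 and Ctsk. Ctsk, which encodes the collagen-degrading protease cathepsin K, was at 2.19, 2.73 and 5.09 UMIs per 10000 against 2.76, 4.73 and 10.9. It was lower in 18 of 18 libraries although the ranges overlapped (log2 difference -0.83 ± 0.10, edgeR adjusted p = 1.51e-06). Tnmd, the gene of tenomodulin, a marker of tendon-like connective tissue, averaged 0.108 ± 0.0908 against 0.427 ± 0.298 (SD, n = 18 libraries; log2 difference -1.90 ± 0.21, edgeR adjusted p = 1.17e-07). Ndufa4l2 averaged 0.0295 ± 0.0208 against 0.184 ± 0.148 (-2.12 ± 0.25, edgeR adjusted p = 3.27e-07) and Camk2a 0.0191 ± 0.0155 against 0.0612 ± 0.0399 (-1.45 ± 0.18, edgeR adjusted p = 1.03e-06). Wfdc12 had 2 UMIs in all interferon-response cells and 295 in the others. Several of the rest were not called under other settings. Gm42418, Lars2 and AY036118, loci that collect ribosomal and mitochondrial reads, differed by -0.36, -0.37 and -0.33. They lost the call with the day block (edgeR adjusted p = 0.286, 0.189 and 0.500), which does not pair the 2 states of a library. Within libraries they were higher in the members in 0, 1 and 1 of 18. The mitochondrial genes mt-Co3 and mt-Nd1 both differed by -0.17 and lost it after thinning (edgeR adjusted p = 0.142 and 0.190).

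Several connective tissue genes were lower in the members, by log2 differences from -0.06 for Dcn to -0.93 for Col15a1. Of 27 matrix genes, 1 was higher (Fbn1, fibrillin-1, 0.10 ± 0.03, edgeR adjusted p = 0.0273) and 8 were lower, beside 3.09% of all genes called lower, with a median log2 difference of -0.06. The lower ones were Mmp2, Col15a1, Mmp14, Sparc, Dcn, Col6a3, Lox and Lum. After thinning Sparc alone was lower, although the median log2 difference of the 27 was again -0.06. With the day block Col15a1 alone of the 9 passed. The calls of Fbn1, Col6a3, Dcn, Lox and Lum were also lost without any 1 of several libraries (edgeR adjusted p = 0.0877 without ZT10 replicate 2 for Fbn1, and 0.0824, 0.0764, 0.0581 and 0.0788 without ZT10 replicate 1 for the others). Col15a1 had the widest difference of them (-0.93 ± 0.18, edgeR adjusted p = 0.00101), and Dcn, the gene of decorin, was at 100.2, 134 and 162 UMIs per 10000 against 109, 137 and 158. Of the marker sets of other dermal fibroblasts, both Cthrc1 and Tnmd were lower (Cthrc1 -1.19 ± 0.25, edgeR adjusted p = 0.00221), as were Fmod of the set with Cilp and Thbs4 (-2.26 ± 0.40, edgeR adjusted p = 0.000313) and Inmt of the set with Sult1e1 and Igfbp3 (-0.21 ± 0.06, edgeR adjusted p = 0.0276). Inmt was lost without ZT2 replicate 1 or ZT18 replicate 3 (edgeR adjusted p = 0.0612 and 0.0608) and with the day block. After thinning neither Fmod nor Inmt passed (edgeR adjusted p = 0.249 and 0.160), while another gene of the set with Fmod was called lower. The median of that set was -0.94 before and -1.11 after thinning, and that of the set with Inmt was -0.21 and -0.19. None of the sets led by Krtdap, Pi16, Cxcl1 and Cxcl14 held a gene that passed.

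Some immediate early genes, which cells switch on within minutes of a stimulus, were lower in the members. Of 15 tested, 0 were higher and 4 were lower, beside 3.09% of all genes, and all 15 differences were negative (median -0.19). The 4 were lower by a log2 difference between -0.16 and -0.58 (Jund, Fosb, Btg2 and Jun). After thinning 3 were lower, Fos, Jund and Btg2, beside 53 of the 10390 genes tested there. The median of the 14 that could be tested after thinning was -0.12. With the day block 0 passed. Jun was lost without any 1 of several libraries (edgeR adjusted p = 0.0961 without ZT10 replicate 1). Of all genes, 3.50% were called higher and 3.09% lower, and the counts with all UMIs that follow stand beside these shares. Of 17 inflammatory genes under NF-kB control, 0 were higher and 1 was lower (Nfkb1, -0.26 ± 0.06, edgeR adjusted p = 0.00926), with a median of -0.06. Of 10 other chemokine genes, Ccl11, an eosinophil attractant, was higher (0.19 ± 0.04, edgeR adjusted p = 0.00358) and Cxcl5, a neutrophil attractant, was lower (-1.13 ± 0.23, edgeR adjusted p = 0.00805). Cxcl5 was lower in 4 of 18 libraries and higher in 0, and after thinning its difference turned to 0.83 and did not pass (edgeR adjusted p = 0.515). Of 8 heat shock genes, Hspe1 and Dnajb1 were higher, beside 3.50% of all genes. With the collection day as the block, Nfkb1, Ccl11, Hspe1 and Dnajb1 did not pass (edgeR adjusted p = 0.0696, 0.374, 0.673 and 0.511). Nfkb1 and Hspe1 did not pass after thinning either (edgeR adjusted p = 0.0882 and 0.813). Of 10 cell cycle genes, Tyms, Mki67 and Top2a were higher, with a median of 0.64 over the 10. After thinning 0 of the 6 that could be tested passed, with a median of 0.55. All 3 calls were lost without ZT2 replicate 3 (edgeR adjusted p = 0.0828, 0.11 and 0.123), and each was also lost without another library.

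No marker of another cell type passed the test in the members, although few of the rarest could be tested. Of the markers, 6 of 8 for macrophages, 1 of 6 for dendritic cells, 2 of 7 for neutrophils and mast cells, 6 of 6 for muscle, 2 of 6 for endothelial cells and pericytes, 1 of 6 for keratinocytes and 5 of 5 for red blood cells had enough UMIs, and 0 of 9 for T and NK cells. The 8 macrophage markers summed to 0.198 ± 0.195 UMIs per 10000 (SD, n = 18 libraries) against 0.194 ± 0.0662 in the other fibroblasts and 194 in immune cells, with Lyz2 the most abundant. The highest sum was 0.934 in ZT22 replicate 1. T and NK cell markers summed to 0.002 against 0.00245, and the defining genes Cd3e, Cd3g, Klrb1c and Ncr1 were at 0. Dendritic cell markers summed to 0.0246 against 0.0271, muscle markers to 0.507 against 0.703, endothelial and pericyte markers to 0.131 against 0.120, keratinocyte markers to 0.319 against 0.305, and neutrophil and mast cell markers to 0.0123 against 0.0126. Haemoglobin and other red blood cell genes summed to 8.21 ± 12.0 against 7.64 ± 6.24, with 41.5 in the interferon-response cells of ZT18 replicate 2. After thinning, 2 of 5 muscle markers were lower.

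Interferon-response cells differed among themselves in the balance of the chosen genes. In 1456 of the 2171 the UMIs of Ifit1 and Ifit3 exceeded those of Iigp1 (Ifit-led), in 633 Iigp1 exceeded the sum of the others (Iigp1-led, 29.2%), and 82 were ties. No Iigp1 UMI was found in 13.5% of the Ifit-led cells, and no Ifit1 or Ifit3 UMI in 14.7% of the Iigp1-led cells. The Ifit-led cells had a median of 11 UMIs of the 3 genes and the Iigp1-led cells 8, at 25287 and 25916 UMIs per cell in all. The Iigp1-led share of the members ran from 16.0% (ZT10 replicate 3) to 49.5% (ZT10 replicate 1).

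Of 10226 genes tested between the subsets, 85 were higher in Ifit-led cells (0.831%) and 59 in Iigp1-led cells (0.577%). With the collection day as a block in place of the library, 29 passed. The split used the 3 chosen genes, so differences of the interferon genes are again given as a description. The interferon genes that passed were all higher in Ifit-led cells: 20 of 33 effectors, 6 of 10 sensors, 7 of 13 GTPases, 3 of 9 signalling genes, 1 of 16 class I presentation genes, 1 of 7 chemokines and ligands of the response (Cd274, 1.18 ± 0.22), 1 of 5 inhibitors (Usp18) and the single interferon ligand tested (Ifnb1). Rsad2 was at 0.204, 0.542 and 1.35 UMIs per 10000 in Ifit-led cells and at 0.0305, 0.154 and 0.35 in Iigp1-led cells (log2 difference 2.14 ± 0.16), and it was higher in 17 of 18 libraries. Isg15 averaged 2.73 ± 0.95 against 1.30 ± 0.54 (1.07 ± 0.11), Cmpk2 0.620 ± 0.14 against 0.307 ± 0.11 (1.05 ± 0.10), Usp18 1.16 ± 0.22 against 0.631 ± 0.13 (0.89 ± 0.08) and Oasl2 1.55 ± 0.24 against 1.03 ± 0.22 (0.60 ± 0.06). Ifit3b differed by 1.73 ± 0.15, but it is nearly identical to Ifit3 and reads between them can be split. GTPase genes, the family of Iigp1, were among those higher in Ifit-led cells, as with Irgm1 (0.57 ± 0.11) and Gbp2 (0.44 ± 0.10). B2m differed by 0.05 ± 0.04 and did not pass. Ifnb1 had 310 UMIs in Ifit-led and 41 in Iigp1-led cells (1.84 ± 0.47), and it passed neither with the day block nor with cycling cells left out. H2-T23, Ifitm3 and Helz2 also lost the call without those cells.

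Outside the interferon lists, the genes with the smallest adjusted p in Ifit-led cells were Tor1aip2, Slfn2, Daxx, Phf11b, Ckb, Tor3a, Aftph, Tor1aip1, Mfap5 and Sp140. Tor1aip2, which encodes a partner of torsin ATPases at the nuclear envelope, differed by 0.39 ± 0.05 (higher in 17 of 18 libraries) and Daxx, a nuclear repressor with a part in antiviral defence, by 0.61 ± 0.10 (higher in 17 of 18). Ckb, Mfap5, Phf11b and Sp140 lost the call with the day block (edgeR adjusted p = 0.434, 0.617, 0.0838 and 0.150). The 10 genes that led in Iigp1-led cells were those of dividing cells or of histones: Hmmr, Hist1h2ae, Hist1h2ap, Top2a, Tpx2, Esco2, Knl1, Ccna2, Cenpf and Mxd3. They came from few cells. Cells with at least 5 UMIs of 6 cycling genes were 13 of 633 Iigp1-led cells (2.05%, interval 1.10 to 3.49%, counting error only), 4 of 1456 Ifit-led cells (0.275%) and 27 of 9948 other fibroblasts (0.271%), and 5 of the 13 were in ZT2 replicate 3. Without those cells 84 genes passed between the subsets, 72 higher in Ifit-led and 12 in Iigp1-led cells, and of the 10 only Hist1h2ap kept enough UMIs to be tested and did not pass. In DESeq2 all of the 10 but Knl1 lost the call. Without ZT2 replicate 3 the counts were 48 and 18.

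The last question was whether the clock of the skin ran in these cells as in their neighbours. The core of this clock is a loop in which CLOCK and BMAL1 (the product of Arntl) switch on Per, Cry and Nr1d genes, whose products switch them off again. A 24 h cosine was tested for each gene over the 18 libraries, and its amplitude is the distance from mean to peak on the log2 scale, with an SE from leaving out libraries in turn. In interferon-response cells 478 of 10133 genes tested passed (4.72%), and in the other fibroblasts 1482 of 12111 (12.2%). The second count rests on 9948 cells and the first on 2171, and the part of this depth in the counts was not tested. In both states 398 genes passed, which is 83.3% of the first list and 26.9% of the second. Both states come from the same mice, and 390 of the 398 peaked within 2 h of each other. The difference in rhythm was tested directly, and 0 of 12380 genes passed (0%; edgeR, lowest adjusted p = 0.373, with 463 at an unadjusted p under 0.05, and 0 in DESeq2). With no filter on low counts 146 of 22152 passed, and without ZT14 replicate 2 there were 4. The 146 included the interferon genes Irf7, Ifit3b and Slfn9 and the chosen gene Ifit3. Hba-a1, Hba-a2, Hbb-bs and Hbb-bt were also among them, as were cell cycle genes such as Mki67 and Top2a.

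Clock genes carried the rhythm, with 15 of 17 tested passing in interferon-response cells and 15 of 18 in the other fibroblasts. Nr1d1, which encodes the repressor REV-ERB alpha, averaged 0.342 ± 0.111, 1.50 ± 0.209, 1.28 ± 0.149, 0.396 ± 0.167, 0.0277 ± 0.0190 and 0.0445 ± 0.0625 UMIs per 10000 (SD, n = 3 mice each) from ZT2 to ZT22 in interferon-response cells. It was high at ZT6 and ZT10 and low at ZT18 and ZT22, with an amplitude of 2.91 ± 0.29 and a peak at 8.10 h (edgeR adjusted p = 3.34e-07), against 2.97 ± 0.25 at 8.11 h in the other fibroblasts. Arntl ran opposite to it, at 0.281 ± 0.0225, 0.0274 ± 0.0193, 0.0145 ± 0.0074, 0.0328 ± 0.00692, 0.164 ± 0.0675 and 0.261 ± 0.00338, with an amplitude of 2.12 ± 0.21 and a peak at 22.7 h (edgeR adjusted p = 3.77e-07), against 2.28 ± 0.18 at 22.6 h. Dbp, a clock output gene, had an amplitude of 2.74 ± 0.23 and a peak at 9.74 h (edgeR adjusted p = 3.34e-07), against 2.97 ± 0.19 at 9.90 h. Per2 peaked at 14.3 h with an amplitude of 1.4 ± 0.34 (edgeR adjusted p = 0.00244), and Cry1 at 19.4 h with 1.73 ± 0.26 (edgeR adjusted p = 4.1e-06). Npas2 and Nfil3 peaked at 23.6 and 22.2 h, Clock at 21.8 h with a smaller amplitude of 0.53 ± 0.06, and Per1, Nr1d2, Hlf, Tef, Per3 and Bhlhe41 between 8.04 and 11.2 h. Cry2 and Rora did not pass (edgeR adjusted p = 0.204 and 0.207), and Bhlhe40 passed at an edgeR adjusted p of 0.0246 but lost the call without ZT2 replicate 2, ZT10 replicate 2 or ZT14 replicate 2 (edgeR adjusted p = 0.0579, 0.05004 and 0.0669). Between states, the mean level of Arntl was lower in interferon-response cells by -0.23 on the log2 scale (edgeR adjusted p = 0.0369) and that of Rora by -0.18 (edgeR adjusted p = 0.00304). Neither passed with the day block (edgeR adjusted p = 0.990 and 0.0982). That block does not pair the 2 states of a library and holds no term for time. The swing of Arntl over the day then counts as spread, so the block cannot decide on Arntl. With the library as the block, Arntl was lost without any 1 of 7 libraries (up to an edgeR adjusted p of 0.114 without ZT22 replicate 1).

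**Figure D4:**
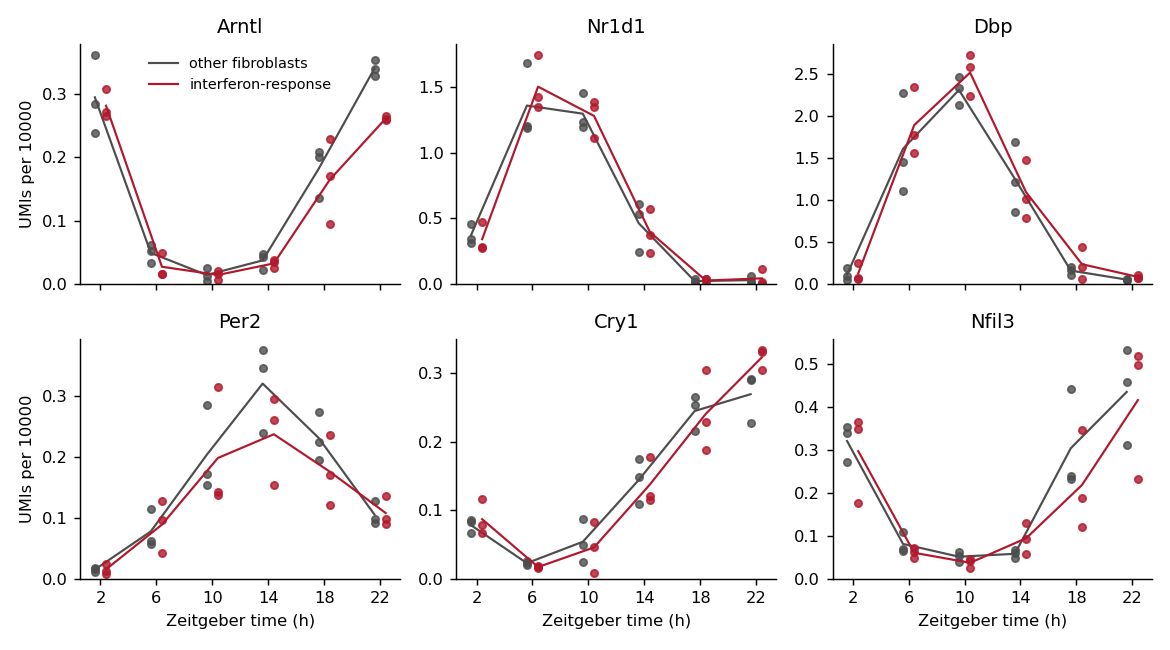
Levels of clock genes in UMIs per 10000 against zeitgeber time (hours) in interferon-response cells and in the other fibroblasts, 1 point per library, with lines through the means of 3 mice. Both states rise and fall together, as with Nr1d1, which peaks at 8.10 and 8.11 h, and Arntl, which peaks at 22.7 and 22.6 h.

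Interferon genes were not rhythmic beyond the share of all genes. Leaving out Ifit1, Ifit3 and Iigp1, whose range the threshold narrows, 1 of 101 tested passed in interferon-response cells (0.990%), Ifngr2, against 4.72% of all genes, and its call was lost in 11 of the 18 fits with 1 library left out (edgeR adjusted p = 0.0446 with all, up to 0.0912 without ZT2 replicate 2). In the other fibroblasts 7 of 101 passed (6.93%) against 12.2%. The 7 were Jak1, Gbp6, Il10rb, Ifngr2, Jak2, Ifit2 and Ifit3b. Of the 3 markers that had no part in the choice, 0 passed in interferon-response cells, with edgeR adjusted p-values of 0.064 for Cmpk2, 0.174 for Usp18 and 0.679 for Isg15. Outside the clock and the interferon lists, the rhythm calls were led by Leo1, Tspan4 and Sash1. Leo1, a subunit of a complex that moves with RNA polymerase, was at 0.235 ± 0.0216 at ZT2, 0.0683 ± 0.00646 at ZT10 and 0.251 ± 0.0166 at ZT22 (amplitude 0.90, peak at 22.8 h, edgeR adjusted p = 1.1e-06). Tspan4, a membrane scaffold gene, ran the other way, at 0.580 ± 0.125 at ZT2, 1.88 ± 0.144 at ZT14 and 0.672 ± 0.131 at ZT22 (amplitude 0.91, peak at 12.1 h, edgeR adjusted p = 1.42e-06). Of 27 matrix genes 6 passed (Fbn1, Col12a1, Mmp14, Fbln2, Mgp and Bgn). Of these, Mgp and Bgn were lost without any 1 of several libraries, up to an edgeR adjusted p of 0.115 and 0.108 without ZT14 replicate 2. All 4 red blood cell genes tested passed as well, with the highest sum in ZT18 replicate 2. Without that library 0 of the 4 passed (edgeR adjusted p = 0.081 for Hba-a1, 0.0885 for Hba-a2, 0.0877 for Hbb-bs and 0.0608 for Hbb-bt). The loss was not particular to it. All 4 were also lost without ZT2 replicate 1, 2 or 3, ZT6 replicate 1, or ZT18 replicate 1 or 3 (Hbb-bt at an edgeR adjusted p of 0.107 without ZT18 replicate 3).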

How the data were processed

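Single-cell counts of 18 dermal libraries were analysed. Per the labels, the authors aligned Chromium 3' reads with Cell Ranger 3.1.0 to mm10 and deposited UMI counts per gene and cell, with no normalization. Ambient RNA and doublets were not removed here, and leaving out the top 10% of fibroblasts by UMIs was an alternative. Members and gene lists were chosen with earlier results of these data known.

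UMIs were summed per library and state, so the mouse is the replicate. The sums were tested with edgeR 4.0.16 (TMM, filterByExpr, quasi-likelihood test, Benjamini-Hochberg adjustment over all genes, threshold 0.05). Both states of a library were blocked by library, and rhythm was tested with cosine and sine terms of 24 h. Shares and correlations were tested with 100000 permutations of libraries (smallest possible p = 1e-05), or exactly for 6 libraries. DESeq2 1.42.0, RLE factors, no filter, thinning, other thresholds, a day block and each library left out were the alternatives. The scripts were tested on simulated data.

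Named genes were all list members plus, outside the interferon lists, the 10 with the smallest adjusted p in each direction. Replicate numbers were read as collection days from the collection hours in the labels. Whether mice of a day share anything else is not stated. Deviations from the time means correlated with a median r of 0.00386 over 45 same-day pairs of interferon-response sums, and with 0.0961 for the other fibroblasts. Over the 90 other pairs the medians were -0.00492 and -0.0614. Promoter sequences came from RefSeq (GRCm38.p6). Usp18 and some other genes had no entry. One gene of the signalling list is counted but not reported singly here.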

Additional observations from a re-analysis of the deposited data

How the results depend on the processing

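The count of genes that differed between interferon-response and other fibroblasts was 815 and moved to 289 (209 higher, 80 lower) with the replicate block (collection day), to 289 (236 and 53) after thinning to 10000 UMIs, to 498 with a threshold of at least 10 UMIs and to 536 without the top 10% of fibroblasts by UMIs. The higher share of these calls was 53.1%, 81.7% after thinning and 35.9% with no filter on low counts (379 higher, 678 lower). The 144 calls between Ifit-led and Iigp1-led cells moved to 90 in DESeq2, 378 with no filter on low counts, 29 with the replicate block and 84 without cycling cells (chosen after seeing the data), and ran from 66 (without ZT2 replicate 3) to 167 (without ZT14 replicate 2) with 1 library left out. Rhythm calls in interferon-response cells moved from 478 to 718 with no filter and 713 in DESeq2, and those in the other fibroblasts from 1482 to 2223 in DESeq2. Differences in rhythm moved from 0 to 146 with no filter, and ran from 0 to 4 (without ZT14 replicate 2) with 1 library left out. The cause of these shifts was not tested. The relation of the share to the immune percent fell to 0.108 without the 2 farthest libraries and ran from 0.119 to 0.765 with 1 library left out. The share's rhythm kept a p over the threshold under every alternative, replicate block included (0.0866 of the variance, permutation p = 0.693). Beside the calls named with it above, the replicate block moved Bhlhe40 past the threshold in the other fibroblasts (edgeR adjusted p = 0.0272). At least 20 cells a library left out none. Depth limits the libraries with few members, down to 24 in ZT6 replicate 2.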

Other observations

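With the cycling cells left out, the 12 genes higher in Iigp1-led than in Ifit-led interferon-response cells included the complement gene C4b, Gpnmb and Serpina3n, all chosen for naming after their values were seen. C4b averaged 2.37 ± 0.86 UMIs per 10000 in Ifit-led and 3.72 ± 1.0 in Iigp1-led cells (SD, n = 18 libraries), and was higher in Ifit-led cells in 3 of 18 libraries (edgeR adjusted p = 0.00237 without cycling cells, 0.0274 with the day block and all cells). Gpnmb averaged 0.346 ± 0.15 against 0.514 ± 0.19 (edgeR adjusted p = 0.00105 without cycling cells) and Serpina3n 0.262 ± 0.26 against 0.414 ± 0.36 (edgeR adjusted p = 0.00873 without cycling cells), and neither passed with the day block (edgeR adjusted p = 0.239 and 0.583).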
